A study of Mus musculus with 6 samples.

Results

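Glycosaminoglycan synthesis and sulfation was followed through 52 genes, taken from the table by symbol for their known roles, out of the 15803 genes of the table. The list was chosen with earlier results of these data known, which limits the shares set beside all genes below. RNA was taken from growth plate cartilage of mouse embryos at E18.5, in 3 libraries labelled WT and 3 labelled CKO. The WT embryos were Hnrnpk fl/fl without Cre, and the CKO embryos were Col2a1-Cre;Hnrnpk fl/fl, so the control embryos carried the loxP-flanked exons of Hnrnpk too, and the control group held no Cre. In CKO embryos Cre was driven by the Col2a1 promoter, which is active in cells of the chondrocyte lineage. Embryos of both sexes were used without a record of sex, and the labels do not say whether each library came from a separate embryo, so the p-values measure the spread between these libraries.

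Glycosaminoglycans are long sugar chains that hold water in cartilage and bind growth factors. Chondroitin, dermatan and heparan sulfate are built in the Golgi on a short linker of sugars attached to a core protein, such as aggrecan, whereas hyaluronan is made at the plasma membrane without a core protein. The chains are assembled from UDP-sugars and sulfated with PAPS, the activated form of sulfate, and cartilage is so rich in chondroitin sulfate that inherited loss of sulfate uptake or of PAPS synthesis causes skeletal dysplasia.

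Of the 4 members that passed the test, 3 belong to the supply of precursors. Ugp2 and Ugdh, the enzymes of consecutive steps that make UDP-glucose and then UDP-glucuronate, rose in CKO to 3.33 and 2.48 times their WT means. Papss2, the PAPS synthase best known for its role in cartilage, fell to 0.41 of its WT mean, and Extl1, a glycosyltransferase of heparan chain elongation, fell to 0.307. No other member passed an adjusted p of 0.05 in limma. Of the 52 members, 47 passed the filter of at least 1 CPM on average over the 6 libraries (CPM are reads scaled to a library total of 1000000) and were tested. The other 5, Chst1, Chst13, Ust, Hs3st1 and Has3, had between 2 and 7 reads in all 6 libraries together. The called members made up 4.26% of those tested in each direction, beside 2.6% of all 12155 genes tested that were called lower and 3.18% that were called higher. The quasi-likelihood test of edgeR on the recovered reads tested 31 of the members and called the same 4 of them (12.9%). Of all genes it tested it called 9.57%, 4.71% on the lower side and 4.85% on the higher side. So did the criterion of the study, which asks for a log2 fold change beyond 1 or -1 and an unadjusted p under 0.05, when the limma p was used, beside 5.1% of all genes lower and 5.3% higher. With the p of edgeR or DESeq2 the same criterion gave 5 members lower and 2 higher. With 1 library left out, limma gave 1 member lower by this criterion without WT 3, 2 without CKO 1, 4 without WT 1, 5 without CKO 3, 6 without CKO 2 and 7 without WT 2. The share of all genes meeting this criterion was not counted in these fits or in those of edgeR and DESeq2. At the adjusted threshold limma called 1.75% of all genes without WT 2, the lowest of these fits, and 10.8% without CKO 2, the highest.

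**Figure D1:**
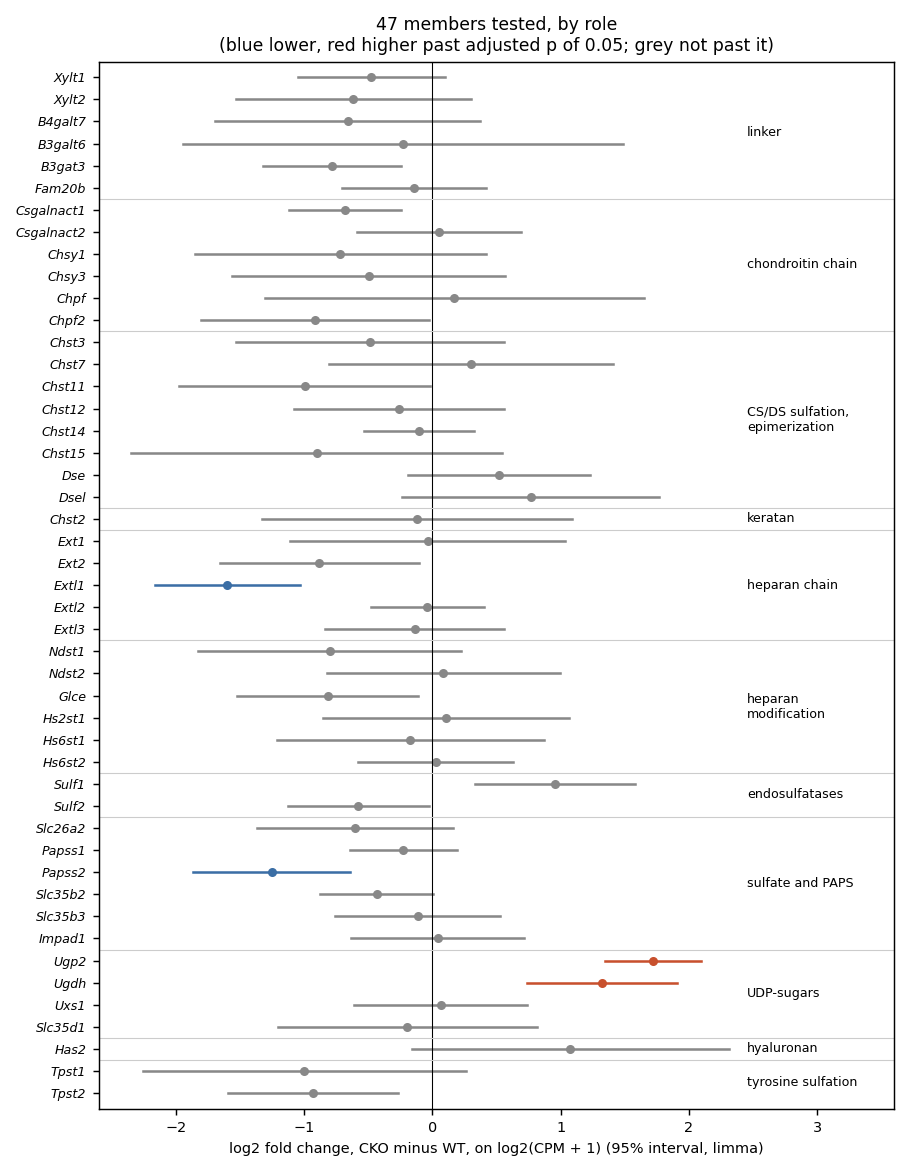
Log2 fold change of CKO over WT on the log2(CPM + 1) scale for the 47 members tested, with 95% intervals from limma, grouped by role. Ugp2 and Ugdh lie to the right of 0 and Papss2 and Extl1 to the left with adjusted p under 0.05, and 33 of the 47 members lie below 0.

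Most members, called or not, had a negative log2 fold change. The log2 fold change was below 0 in 33 of 47 members (70.2%), beside 49.2% of all genes tested, and the median was -0.23 for the members (-0.43 without WT 2, -0.17 without WT 3) and 0.01 for all genes. All 3 CKO libraries lay below all 3 WT libraries in 11 members (23.4%, beside 13.2% of all genes), which were Xylt1, B3gat3, Csgalnact1, Chpf2, Chst11, Extl1, Glce, Sulf2, Papss2, Slc35b2 and Tpst2. All CKO libraries lay above all WT libraries in 5 members (10.6%, beside 14.5% of all genes), which were Dsel, Sulf1, Ugp2, Ugdh and Has2. An unadjusted p under 0.05 was reached by 10 members on the lower side (21.3%, beside 10.1% of all genes) and 3 on the higher side (6.38%, beside 11.2%).

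The libraries were shallow and did not stand equally close to each other. They held between 1153871 and 1454094 reads, so 1 read was worth 0.688 to 0.867 CPM, and 3 reads, taken here as the limit of what a count near 0 can show, were worth 2.06 to 2.60 CPM, a limit that covers counting error only. Across the 12155 genes tested, which are not independent replicates, the log2 values of WT 1 and WT 2 correlated at 0.965 and those of CKO 1 and CKO 3 at 0.965, whereas WT 3 correlated with the other WT libraries at 0.937 to 0.938 and CKO 2 with the other CKO libraries at 0.921 to 0.924. WT 3 was the highest WT library in 28 of the 47 members tested, and its median difference from the other WT libraries over the members was 0.45 on the log2 scale. CKO 2 was the highest CKO library in 20 members and the lowest in 18. Hnrnpk itself ranged from 842 to 955 CPM in WT, against 759 to 949.9 CPM in CKO with overlap, so its RNA level did not separate the libraries labelled CKO from those labelled WT. Cre removes only the loxP-flanked exons, and levels were given per gene, not per exon. The part of the remaining exons, and of cells without Cre, in this level was not tested.

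The tissue showed cartilage markers in every library, at different levels. The summed CPM of 8 chondrocyte markers, led by Matn1 and Col2a1, ranged from 15536 to 21272 in WT and from 4493 to 5359 in CKO, and 6 of the 8 were called lower. In bulk tissue, fewer chondrocytes and less RNA per chondrocyte cannot be told apart. The 5 hypertrophic markers summed to 410 to 861 CPM in WT, 527 CPM in CKO 2, but 2927 and 3155 CPM in CKO 1 and CKO 3, of which Mmp13 alone made up 2155 and 2301 CPM. None of the 4 tested was called by limma or edgeR, and 3 had an unadjusted limma p under 0.05. These 3 went in both directions, with log2 fold changes of 1.81 for Mmp13, 1.78 for Ibsp and -0.91 for Pth1r. Col10a1 had 0.33, with overlap. The 6 osteoblast markers showed the same division, with 58.3 to 103 CPM in WT, 51.97 CPM in CKO 2 and 362 and 332 CPM in CKO 1 and CKO 3. The 7 macrophage and osteoclast markers summed to 151 and 158 CPM in WT 1 and WT 2 and 381 CPM in WT 3, against 277 to 307 CPM in CKO, with Cd68 called higher. The 6 perichondrium and fibroblast markers summed to 2493 to 4431 CPM in WT, against 1273 to 2018 CPM in CKO, with Col1a2 called lower. The lists of muscle, keratinocyte, erythroid, endothelium and nerve markers each summed to at most 127 CPM in any library. That value was muscle in WT 3, beside 53.6 and 29.3 CPM in WT 1 and WT 2. CKO 2 had the highest keratinocyte sum (57.0 CPM, beside 35.1 and 34.7 in CKO 1 and CKO 3). It also had the highest erythroid sum (28.9 CPM, beside 2.06 and 6.07). Krt5, Krt14, Alas2 and Kdr were not among the rows of the table. The part of these markers in the values below was not tested.

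Ugp2, UDP-glucose pyrophosphorylase, makes UDP-glucose and stands at the head of the UDP-sugar route. Its level was 119, 98.3 and 101 CPM in WT 1, 2 and 3, against 367, 300 and 390 CPM in CKO 1, 2 and 3. Every CKO library stood far above every WT library. The mean rose from 106 ± 11.3 to 352 ± 47.1 CPM (SD, n = 3 each), a log2 fold change of 1.72 (SE 0.17, 95% interval 1.35 to 2.09, adjusted p = 6.54e-04 in limma), and the gene was called in all alternatives tried. Ugp2 (ENSMUSG00000001891) lies on chromosome 11 from 21321138 to 21371201 on the minus strand (GRCm38), and its exons overlap those of Gm12043 on the opposite strand over 78 bases.

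Ugdh, UDP-glucose dehydrogenase, turns UDP-glucose into UDP-glucuronate, the acidic sugar of every chain named here other than keratan. Its level was 212, 215 and 383 CPM in WT 1, 2 and 3, against 537, 900 and 568 CPM in CKO 1, 2 and 3. WT 3 and CKO 2 were the high libraries of their groups, yet the groups did not overlap. The mean rose from 270 ± 97.9 to 668 ± 201 CPM (SD, n = 3 each), a log2 fold change of 1.32 (SE 0.26, 95% interval 0.74 to 1.91, adjusted p = 0.0187 in limma). The call was lost without WT 1 (limma adjusted p = 0.101), WT 2 (0.0984) or CKO 3 (0.0553), with log2 fold changes of 1.18, 1.19 and 1.42. Ugdh (ENSMUSG00000029201) lies on chromosome 5 from 65413221 to 65435949 on the minus strand, shares sequence with the predicted gene Gm14603 and overlaps exons of Gm43552 on the same strand over 158 bases, so some of its reads are of uncertain origin.

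The other members of the UDP-sugar group did not pass the test. Uxs1, which turns UDP-glucuronate into the UDP-xylose that starts the linker, had a mean of 35.3 ± 8.46 CPM in WT, against 37.8 ± 14.3 CPM in CKO (SD, n = 3 each), with a log2 fold change of 0.06 (95% interval -0.61 to 0.74). Slc35d1, a Golgi and ER transporter of UDP-glucuronate and UDP-N-acetylgalactosamine, had a log2 fold change of -0.20. Within a library, the ratio of Ugdh to Uxs1 in CPM, without correction for length, was 5.21, 8.41 and 9.64 in WT 1, 2 and 3, against 21.1, 16.9 and 16.4 in CKO 1, 2 and 3. The log2 ratio, taken of CPM + 1, differed by 1.26 between the genotypes without overlap (two-sided exact permutation p = 0.1, the lowest value possible with 3 libraries per group). This ratio and the 3 ratios given below were chosen after the values were seen.

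Papss2 joins sulfate to ATP to form PAPS and is the isoform affected in inherited dysplasia of the growth plate. Its level was 354, 331 and 645 CPM in WT 1, 2 and 3, against 142, 245 and 159 CPM in CKO 1, 2 and 3. WT 3 stood well above the other WT libraries and CKO 2 above the other CKO libraries, with no overlap between the groups. The mean fell from 444 ± 175 to 182 ± 55.1 CPM (SD, n = 3 each), a log2 fold change of -1.25 (SE 0.28, 95% interval -1.87 to -0.64, adjusted p = 0.0276 in limma). Leaving out any library other than CKO 2 ended the call, with limma adjusted p of 0.0794 without WT 1, 0.0628 without WT 2, 0.0529 without WT 3, 0.107 without CKO 1 and 0.113 without CKO 3, and with log2 fold changes between -1.43 and -0.95. Papss2 (ENSMUSG00000024899) lies on chromosome 19 from 32595790 to 32667187 on the plus strand.

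The other genes of sulfate supply had log2 fold changes between -0.60 and 0.04 and did not pass the test. Papss1, the second PAPS synthase, stood at 78.3, 65.3 and 75.2 CPM in WT, against 66.0, 53.4 and 67.6 CPM in CKO, which overlapped, with a log2 fold change of -0.23 (95% interval -0.65 to 0.19). The ratio of Papss2 to Papss1 was 4.53, 5.07 and 8.58 in WT 1, 2 and 3, against 2.15, 4.58 and 2.36 in CKO 1, 2 and 3. CKO 2 thus lay within the WT range, and the log2 ratio differed by -1.03 (two-sided exact permutation p = 0.2). Slc26a2, the main sulfate importer of chondrocytes, stood at 71.0, 57.8 and 175 CPM in WT, against 59.1, 59.9 and 57.2 CPM in CKO. Only WT 3 stood apart there, and the log2 fold change was -0.60 with WT 3 and -0.12 without it. Slc35b2, the main PAPS transporter of the Golgi, had 191, 172 and 264 CPM in WT, against 156, 131 and 170 CPM in CKO without overlap, with a log2 fold change of -0.44 (limma adjusted p = 0.236). Slc35b3, a further PAPS transporter, and Impad1, the phosphatase that clears the spent cofactor PAP, had log2 fold changes of -0.11 and 0.04.

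Extl1 stood at 29.7, 30.8 and 27.9 CPM in WT 1, 2 and 3, against 8.25, 9.38 and 9.53 CPM in CKO 1, 2 and 3. The libraries of each genotype lay close together and the groups far apart, also in WT 3 and CKO 2. The mean fell from 29.5 ± 1.46 to 9.06 ± 0.70 CPM (SD, n = 3 each), a log2 fold change of -1.60 (SE 0.25, 95% interval -2.16 to -1.03, adjusted p = 0.00665 in limma), and the gene was called in all alternatives tried. Extl1 (ENSMUSG00000028838) lies on chromosome 4 from 134356372 to 134383850 on the minus strand. Its relative Extl2, an N-acetylhexosamine transferase of the same family, had means of 50.4 ± 3.78 and 49.2 ± 6.38 CPM (SD, n = 3 each) and a log2 fold change of -0.04. The ratio of Extl1 to Extl2 was 0.586, 0.661 and 0.516 in WT and 0.156, 0.224 and 0.18 in CKO, a log2 difference of -1.56 (two-sided exact permutation p = 0.1, the smallest possible).

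**Figure D2:**
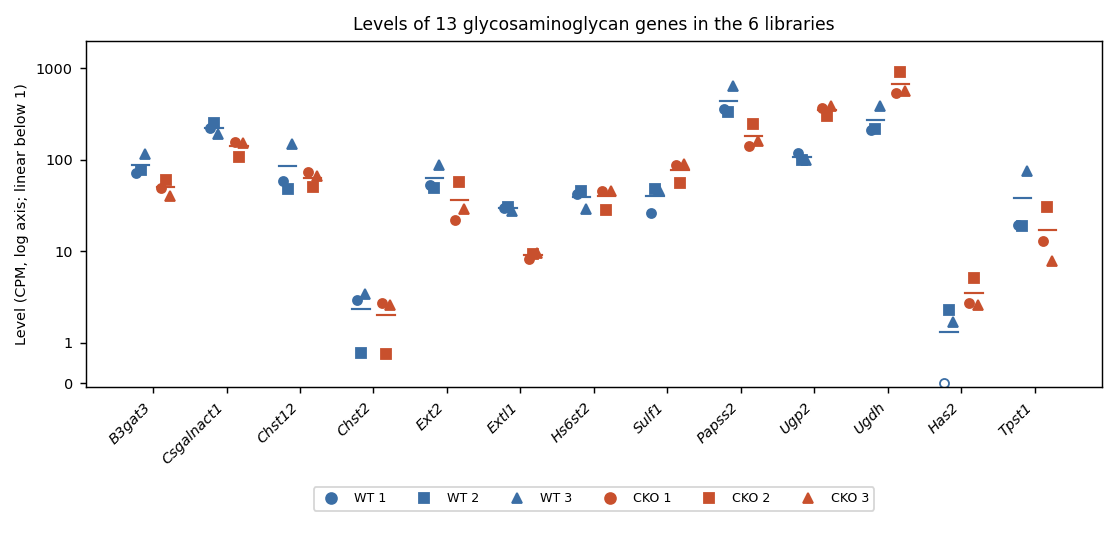
Level in CPM of members in each of the 3 WT and 3 CKO libraries, on a log axis that is linear below 1, with 1 point per library and a bar at the mean, for the 4 called members and the member of each role group with the highest mean. Ugp2 (98.3 to 119 CPM in WT, 300 to 390 CPM in CKO) and Extl1 (27.9 to 30.8 and 8.25 to 9.53 CPM) show the tightest separation of the 4 called members.

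The sequences around the start sites of the called members are shown, whatever the direction of their change. Each runs from 250 bases before to 50 bases after the RefSeq start site on GRCm38.p6, in the direction of the gene. Capitals mark ACGTG, a form of the core letters of the hypoxia response element, or its complement. The form GCGTG was not searched for and stays in small letters where it occurs, as in the windows of Ugp2 and Ugdh. The windows are chr11:21371218-21371517 on the minus strand for Ugp2, chr5:65435793-65436092 on the minus strand for Ugdh, chr19:32595465-32595764 on the plus strand for Papss2 and chr4:134372498-134372797 on the minus strand for Extl1.
Ugp2: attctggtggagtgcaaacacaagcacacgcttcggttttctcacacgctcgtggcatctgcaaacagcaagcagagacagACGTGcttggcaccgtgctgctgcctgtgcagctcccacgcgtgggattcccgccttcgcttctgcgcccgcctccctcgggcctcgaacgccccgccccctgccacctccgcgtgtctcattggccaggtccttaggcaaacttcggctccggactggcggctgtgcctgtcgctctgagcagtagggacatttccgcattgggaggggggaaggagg
Ugdh: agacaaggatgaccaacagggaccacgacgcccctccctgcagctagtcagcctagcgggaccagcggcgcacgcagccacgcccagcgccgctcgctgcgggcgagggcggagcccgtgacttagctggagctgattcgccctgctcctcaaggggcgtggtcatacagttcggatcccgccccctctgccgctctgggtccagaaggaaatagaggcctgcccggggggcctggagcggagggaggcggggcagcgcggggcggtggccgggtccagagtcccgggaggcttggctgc
Papss2: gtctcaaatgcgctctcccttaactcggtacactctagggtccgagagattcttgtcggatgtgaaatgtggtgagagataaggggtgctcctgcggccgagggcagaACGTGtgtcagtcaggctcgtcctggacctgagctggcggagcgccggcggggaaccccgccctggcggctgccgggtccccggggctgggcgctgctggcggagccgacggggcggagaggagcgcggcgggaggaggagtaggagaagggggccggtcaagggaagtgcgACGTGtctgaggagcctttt
Extl1: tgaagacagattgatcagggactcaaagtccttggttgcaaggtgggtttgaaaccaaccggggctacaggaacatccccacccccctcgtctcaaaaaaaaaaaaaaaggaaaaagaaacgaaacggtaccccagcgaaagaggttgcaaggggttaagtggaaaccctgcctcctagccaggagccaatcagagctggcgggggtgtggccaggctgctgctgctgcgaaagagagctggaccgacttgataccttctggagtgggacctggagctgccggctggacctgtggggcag
The letters ACGTG occurred, searched on both strands, at -169 from the start site (position 0) in Ugp2 and at -142 and 30 in Papss2, and not in the windows of Ugdh and Extl1. They therefore occurred in a gene that rose and in a gene that fell. Of the 52 members, 41 had a RefSeq promoter in the table used, and 9 of these (22.0%) held ACGTG, beside 19.7% of all 27025 genes with a promoter there. Where a gene had several windows, members were given the one nearest the annotated start of the gene. For all genes the first in position was taken, so this share and the next compare windows chosen differently. Letters of the SOX type, sought as AACAATG on either strand and likewise as ACAAAG, were in 1 member, Chst3 (2.44%), beside 21.8% of all genes, while the members' windows had a median GC content of 66.3%, beside 52.7%, and a median of 23 CpG, beside 7. The window of Extl1 lies 11303 bases inside the outermost annotated start of the gene and 11 bases from its nearest annotated transcript start. Matches of letters are descriptions of these windows and do not show binding.

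The linker is built by xylosyltransferase, galactosyltransferases and the glucuronyltransferase B3gat3, and all 6 of its genes had log2 fold changes below 0 with all libraries in limma (median -0.55), with none called by limma and 1 at an unadjusted limma p under 0.05. None was called by edgeR or DESeq2 where these gave an adjusted p, which neither did for Xylt2, B4galt7 and B3galt6. B3gat3, which adds the glucuronate that completes the linker, stood at 71.0, 76.5 and 116 CPM in WT, against 49.5, 60.6 and 39.9 CPM in CKO. The groups did not overlap, and the log2 fold change was -0.79 (95% interval -1.32 to -0.25, limma adjusted p = 0.0888). Without CKO 2 the same gene passed the test (log2 fold change -0.93, limma adjusted p = 0.0295). Xylt1 and Xylt2, the xylosyltransferases that attach the first sugar, had log2 fold changes of -0.48 and -0.62, and B4galt7, the first galactosyltransferase, -0.66. B3galt6, the next galactosyltransferase, had only 19 reads in all, and its log2 fold change was -0.23 in limma, 0.31 in DESeq2 and 0.21, 0.024 and 0.40 without WT 3, CKO 1 and CKO 3. The kinase Fam20b, which phosphorylates the xylose, had a log2 fold change of -0.14, and of 0.12 without WT 3.

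Chondroitin chains are begun by Csgalnact1 and Csgalnact2 and extended by Chsy1, Chsy3, Chpf and Chpf2, and none of the 6 was called by limma (2 had an unadjusted limma p under 0.05). None was called by edgeR or DESeq2 where these gave an adjusted p, and edgeR did not test Chsy1, Chsy3 and Chpf. Csgalnact1, the gene of this group with the highest CPM, stood at 225, 251 and 192 CPM in WT, against 158, 107 and 154 CPM in CKO. The lowest WT library lay above the highest CKO library, with a log2 fold change of -0.68 (95% interval -1.11 to -0.25, limma adjusted p = 0.0724). Csgalnact2 had means of 12.1 ± 1.52 and 12.6 ± 1.4 CPM (SD, n = 3 each) and a log2 fold change of 0.05. Of the polymerizing enzymes, Chpf2 had a log2 fold change of -0.91 (limma adjusted p = 0.221) without overlap, but its exons overlap those of Smarcd3 on the opposite strand over 2466 bases, and the strand setting of the counting is not given in the sources used here. Chsy1, Chsy3 and Chpf had log2 fold changes of -0.72, -0.50 and 0.17, none past the test, from 31, 13 and 68 reads in all.

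Among the enzymes that sulfate or epimerize chondroitin and dermatan, 8 of 10 were tested and none was called by limma, with 1 at an unadjusted limma p under 0.05. None was called by edgeR or DESeq2 where these gave an adjusted p, and edgeR did not test Chst3, Chst7, Chst15 and Dsel. The 4-O-sulfotransferase Chst12 had the highest CPM, with 58.7, 48.0 and 150 CPM in WT, against 73.6, 50.5 and 65.9 CPM in CKO. These groups overlapped, and only WT 3 was high: the log2 fold change was -0.26 with WT 3 and 0.23 without it. Chst11, the 4-O-sulfotransferase required for cartilage development, stood at 21.02, 18.8 and 66.7 CPM in WT, against 11.0, 15.2 and 18.2 CPM in CKO. Its groups did not overlap, but WT 3 carried much of the difference, with a log2 fold change of -0.99 (limma adjusted p = 0.225) with WT 3 and -0.43 without it. The dermatan 4-O-sulfotransferase Chst14 lay close between genotypes, at 46.3 ± 4.02 and 42.8 ± 0.85 CPM (SD, n = 3 each), with a log2 fold change of -0.11 (95% interval -0.53 to 0.32). The epimerases of dermatan, Dse and Dsel, had log2 fold changes of 0.52 and 0.77 and did not pass the test (limma adjusted p = 0.383 and 0.36). The groups overlapped in Dse, and Dsel had only 19 reads in all. The 6-O-sulfotransferases Chst3 and Chst7 and the 4,6-sulfating Chst15 had 18, 10 and 16 reads in all and did not pass the test. Chst2 of keratan and GlcNAc 6-O-sulfation did not pass either, with 2.90, 0.75 and 3.38 CPM in WT, against 2.75, 0.722 and 2.60 CPM in CKO.

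Of the 5 heparan chain genes, Extl1 alone passed, and all were below 0 on the log2 scale with all libraries in limma (median -0.14). Ext2, which with Ext1 forms the heparan polymerase, stood at 53.6, 49.5 and 88.7 CPM in WT, against 22.0, 57.0 and 28.6 CPM in CKO. CKO 2 alone lay in the WT range. The log2 fold change was -0.88 (limma adjusted p = 0.177) with all libraries and -1.27 (limma adjusted p = 0.0153) without CKO 2. Ext1 and Extl3, the enzyme that starts the heparan chain, had log2 fold changes of -0.04 and -0.14. The direction of Ext1 turned in edgeR (0.12), in DESeq2 (0.15), without CKO 2 (0.55) and without WT 1 (0.037), that of Extl2 without WT 3 (0.010) and CKO 2 (0.070), and that of Extl3 without WT 3 (0.11).

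Heparan chains are modified by N-sulfation, epimerization and O-sulfation, and none of the 6 genes tested was called by limma, with 1 at an unadjusted limma p under 0.05. None was called by edgeR or DESeq2 where these gave an adjusted p, and edgeR did not test Ndst1, Ndst2, Hs2st1 and Hs6st1. Hs6st2, a 6-O-sulfotransferase with the highest CPM of these, stood at 42.8, 45.8 and 28.7 CPM in WT, against 46.1, 28.1 and 45.9 CPM in CKO, which is full overlap (log2 fold change 0.03, 95% interval -0.58 to 0.63). Glce, the epimerase that makes iduronate, stood at 16.7, 12.8 and 22.0 CPM in WT, against 11.0, 8.66 and 7.80 CPM in CKO without overlap (log2 fold change -0.82, limma adjusted p = 0.17). The N-deacetylase and N-sulfotransferase genes Ndst1 and Ndst2 had log2 fold changes of -0.80 and 0.09, Hs2st1 0.11 and Hs6st1 -0.17.

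The extracellular endosulfatases Sulf1 and Sulf2, which remove 6-O-sulfate from finished heparan chains, lay in opposite directions. Sulf1 stood at 26.1, 48.0 and 46.5 CPM in WT, against 88.0, 56.3 and 89.3 CPM in CKO. All CKO libraries were above WT, CKO 2 by the least, with a log2 fold change of 0.96 (95% interval 0.33 to 1.58, limma adjusted p = 0.0789), and without CKO 2 it passed the test (1.17, limma adjusted p = 0.0184). Sulf2 stood at 43.5, 63.8 and 50.7 CPM in WT, against 39.2, 40.4 and 26.0 CPM in CKO, with a log2 fold change of -0.58 (limma adjusted p = 0.209). The ratio of Sulf1 to Sulf2 was 0.6, 0.753 and 0.917 in WT 1, 2 and 3, against 2.25, 1.39 and 3.43 in CKO 1, 2 and 3. Every CKO ratio exceeded every WT ratio, a log2 difference of 1.53 (two-sided exact permutation p = 0.1, the smallest possible).

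**Figure D3:**
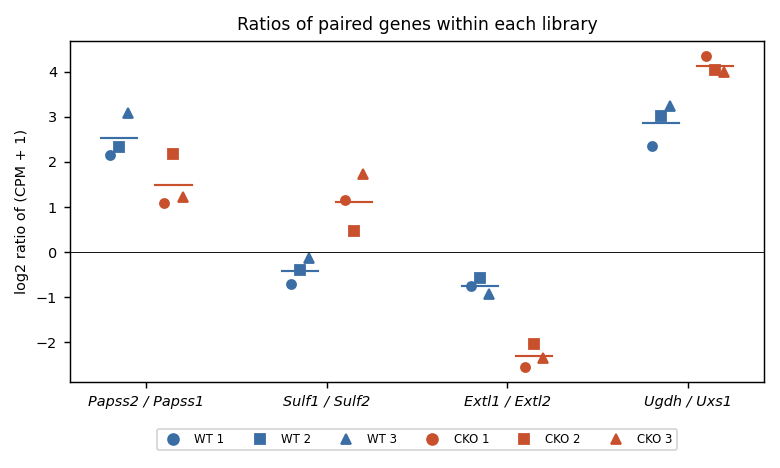
Log2 ratio (of CPM + 1) of a pair of members within each library for Papss2 over Papss1, Sulf1 over Sulf2, Extl1 over Extl2 and Ugdh over Uxs1, 1 point per library with a bar at the mean of each genotype. The genotypes do not overlap in the last 3 pairs, and in Papss2 over Papss1 the CKO 2 library (2.17) lies among the WT libraries (2.16 to 3.08).

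Hyaluronan synthase Has2 stood at 0, 2.25 and 1.69 CPM in WT, against 2.75, 5.05 and 2.60 CPM in CKO, a total of 19 reads. The groups did not overlap, but every WT library was at or under 3 reads, and the gene did not pass the test (limma adjusted p = 0.3). Has3 was at 0 in every WT library and had 3 reads over the CKO libraries. Tpst1 and Tpst2 sulfate tyrosines of proteins with the same cofactor PAPS. Tpst1 stood at 19.6, 18.8 and 75.2 CPM in WT, against 13.1, 30.3 and 7.80 CPM in CKO, with overlap and a log2 fold change of -1.0 (limma adjusted p = 0.342), which was -0.36 without WT 3. Tpst2 stood at 37.7, 24.0 and 41.4 CPM in WT, against 12.4, 20.9 and 19.1 CPM in CKO without overlap, with a log2 fold change of -0.93 (limma adjusted p = 0.0998), and it passed the test without CKO 2 (-1.07, limma adjusted p = 0.0491).

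**Figure D4:**
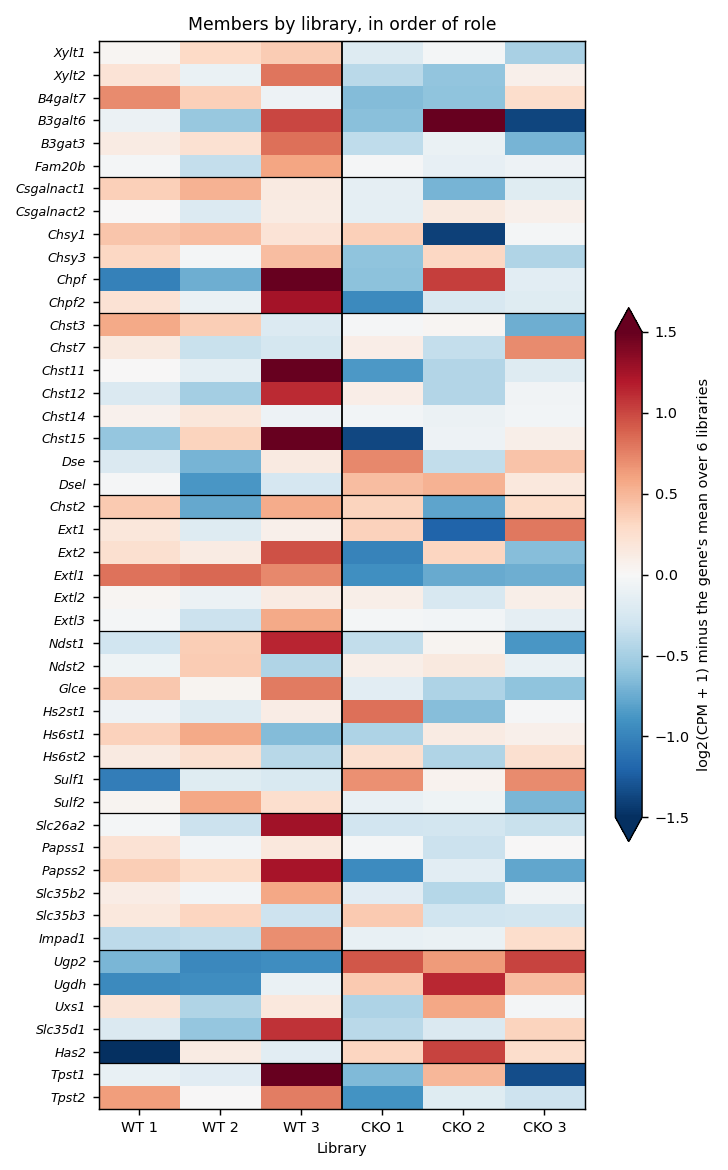
Deviation of log2(CPM + 1) from the mean of the 6 libraries for the 47 members tested, in rows ordered by role, with 1 column per library and colours that end at 1.5 and -1.5. Ugp2 and Ugdh are high in all CKO columns and Papss2 and Extl1 in all WT columns, and WT 3 is the highest WT column in 28 members.

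By level per kilobase of annotated exon, the order of the most abundant members differed between the genotypes. In WT, Papss2 ranked first of the 52 with 119 CPM per kb, followed by Slc35b2 with 67.3 CPM per kb, and Ugdh and Ugp2 stood at ranks 4 and 6 with 39.9 and 34.5 CPM per kb. In CKO, Ugp2 and Ugdh ranked first and second with 115 and 99.0 CPM per kb, and Slc35b2 and Papss2 followed with 49.1 and 48.9 CPM per kb. Extl1 moved from rank 17 (6.80 CPM per kb) to rank 27 (2.09 CPM per kb). In sum, the 4 UDP-sugar genes made up 379, 344 and 544 CPM in WT, against 937, 1261 and 1004 CPM in CKO, whereas the 6 genes of sulfate supply made up 751, 686 and 1244 CPM in WT, against 491, 546 and 522 CPM in CKO. Neither sum overlapped between the genotypes, but both rested on the called members. Without Ugp2 and Ugdh the UDP-sugar sum was 48.6, 31.5 and 60.8 CPM in WT, against 32.3, 61.4 and 46.8 CPM in CKO, and without Papss2 the sulfate sum was 396, 355 and 599 CPM in WT, against 349, 301 and 362 CPM in CKO, and both then overlapped. The CPM of all 52 members together did overlap, at 2075, 1994 and 3093 in WT and 2273, 2572 and 2348 in CKO.

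**Figure D5:**
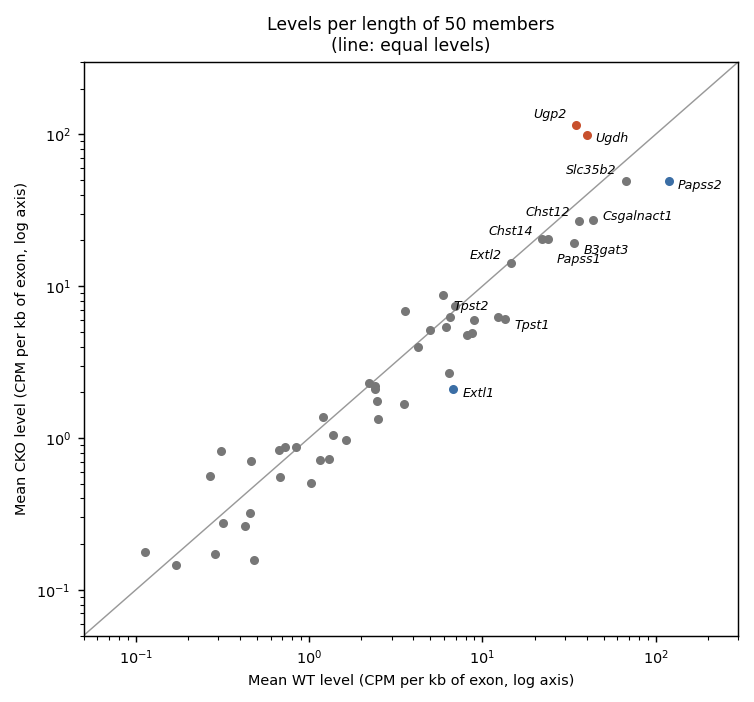
Mean level per kilobase of annotated exon in CKO against WT for 50 members, without Chst1 and Has3, which were at 0 in WT, on log axes in CPM per kb, with the line of equal level. Ugp2 (34.5 in WT, 115 in CKO) and Ugdh (39.9 and 99.0) lie above the line, and Papss2 (119 and 48.9) and Extl1 (6.80 and 2.09) below it.

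Around these genes, other parts of the route were followed by lists. Of 15 tested among 27 other synthesis enzymes and transporters listed, 1 was called by limma, the sulfate and oxalate transporter Slc26a1, with 3, 6 and 8 reads in WT and 0, 0 and 1 read in CKO (limma adjusted p = 0.0497), beside 2.6% of all genes lower and 3.18% higher. In this list 6 of the 15 had an unadjusted limma p under 0.05, beside 10.1% of all genes lower and 11.2% higher. Chst5, Slc35b4 and Slc35a3, named here after their values were seen, met the criterion of the study with log2 fold changes of -1.6, -1.33 and 1.27. Of all genes, 5.1% met it lower and 5.3% higher. These 3 genes had 34, 42 and 65 reads in all, with 31 reads of Slc35a3 in CKO 2, and edgeR did not test them. None of 18 tested genes of glycosaminoglycan degradation was called by limma, or by edgeR where it tested them. Of the 18, 6 had an unadjusted limma p under 0.05, beside 10.1% of all genes lower and 11.2% higher. Naglu (log2 fold change -2.02, 89 reads in all) and Cemip2 (1.31, 36 reads in all) met the criterion of the study. Naglu stood at 17.4, 12.8 and 19.4 CPM in WT, against 0.688, 15.9 and 1.73 CPM in CKO, with CKO 2 in the WT range. In edgeR the log2 fold change of Naglu was -1.43 (edgeR adjusted p = 0.263), and Cemip2 was not tested. Of 29 tested core proteins and hyaluronan partners, 5 were called lower and 1 higher, beside 2.6% and 3.18% of all genes. The lower ones were Acan, the main chondroitin sulfate carrier of cartilage (log2 fold change -1.5), Dcn (-1.89), Fmod (-1.28), Gpc3 (-1.97) and Col9a2 (-2.57), and the higher one was Cd44, a hyaluronan receptor (1.35).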

How the data were processed

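The study made stranded poly(A) libraries of E18.5 growth plate cartilage. Per the submitters' processing notes, cutadapt (2.5), HISAT2 and featureCounts (1.6.3) were used; their settings, the genome build, the annotation and the strand setting are not given in the sources used here. The authors deposited CPM for 15803 genes in 3 WT and 3 CKO libraries. Every value (100%) was a whole multiple of 1 read (largest deviation 6.12e-06 reads), so the reads were recovered, 1153871 to 1454094 per library.

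limma (3.58.1, R 4.3.3) was fitted to log2(CPM + 1) of the 12155 genes that averaged 1 CPM or more, on genotype without covariate, with eBayes (trend) and p adjusted by Benjamini-Hochberg over all genes tested. Fold changes on this scale understate changes of low genes. Intervals are at 95%. Alternatives were a pseudocount of 0.1, no filter, a mean of at least 5 CPM, a replicate term, TMM scaling, each library left out, and edgeR's quasi-likelihood test (4.0.16) and DESeq2 (1.42.0) on the recovered reads, on which edgeR called 363 genes lower and 374 higher of 7704. Ratios of 2 members were compared by exact permutation. The fits were tested on simulated data.

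All 52 members were named, and library values were given for members past the adjusted threshold or the criterion of the study, and for the highest of each role group. Library values of other members, of Slc26a1, of Naglu and of the ratio pairs were added after their values were seen. Members and lists were chosen with earlier results of these data known. Positions and exon lengths came from GENCODE M21 (GRCm38) by identifier, which matched 15212 of the 15803. Near copies were sought by BLAST at 90% identity over 300 bases, and Fam20b, Chpf2, Chst15, Hs6st1, Ugdh, Uxs1 and Has3 had some. Promoters came from RefSeq. Protein sequences were not used here, and the values of some listed genes are not reported here.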

Additional observations from a re-analysis of the deposited data

How the results depend on the processing

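Ugp2 and Extl1 passed the adjusted threshold in all 14 alternatives, with log2 fold changes of 1.64 to 1.83 and -1.74 to -1.54 and adjusted p of 2.37e-11 to 0.00959 and 3.75e-04 to 0.0478 over limma, edgeR and DESeq2. Over the same alternatives the adjusted p ranged from 2.19e-09 to 0.101 for Ugdh and from 1.75e-07 to 0.113 for Papss2. The members called lower numbered 2 with all libraries, 1 to 5 with 1 library left out and 7 without WT 3 and CKO 2, an alternative chosen after seeing the data, and those called higher numbered 2, 1 to 3 and 4. By the criterion of the study, 2 were lower with limma, 5 with edgeR or DESeq2 and 1 to 7 with 1 library left out, and 2 were higher, or 2 to 4 with libraries left out. The share of all genes meeting this criterion was counted only in limma with all libraries. The highest count of lower calls at the adjusted threshold with 1 library left out was without CKO 2, where all genes tested gave 606 lower and 692 higher. The median of the members stayed between -0.43 and -0.15. Without WT 3 and CKO 2, B3gat3, Csgalnact1, Ext2, Sulf2 and Tpst2 were also called lower, Dse (log2 fold change 1.03) and Sulf1 (1.30) higher, and 20.2% of all genes were called.

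The replicate numbers of the labels were checked as pairs. The deviations of same-numbered libraries from their group means correlated at 0.0729, -0.208 and -0.155 over 6827 genes. No library correlated best with its own number. With 3 libraries per group, this check cannot decide whether the numbers mark litters. The paper states that mice were compared with littermates, and the labels name no litter. With the replicate block, 1 member was called lower (Papss2 had a limma adjusted p of 0.0509) and 2 higher, and all genes gave 160 lower and 225 higher calls.

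Of 629 values of single members under the alternatives, 52 had the opposite sign, in 17 members whose log2 fold change was at most 0.26 in size, and none of these was called. DESeq2 gave 0.31 for B3galt6, -0.13 for Chpf, 0.15 for Ext1, -0.00024 for Hs6st2 and -0.063 for Impad1. edgeR gave 0.12 for Ext1, -0.016 for Hs6st2 and -0.078 for Impad1, and TMM scaling -0.017 for Hs6st2 and -0.0029 for Impad1. With libraries left out, the log2 fold change ranged from -1.12 to 0.40 for B3galt6, -0.36 to 0.15 for Fam20b, -0.30 to 0.96 for Chpf, -0.040 to 0.14 for Csgalnact2, -0.53 to 0.49 for Chst2, -0.58 to 0.38 for Chst12, -0.45 to 0.58 for Ext1, -0.096 to 0.12 for Extl2, -0.33 to 0.11 for Extl3, -0.17 to 0.30 for Ndst2, -0.28 to 0.54 for Hs2st1, -0.64 to 0.070 for Hs6st1, -0.17 to 0.26 for Hs6st2, -0.34 to 0.017 for Slc35b3, -0.53 to 0.36 for Slc35d1, -0.14 to 0.46 for Impad1 and -0.21 to 0.31 for Uxs1. The cause was not tested. Depth limits members with few reads, and the values of Chst7, Chsy3, Chst15, Chst2, Chst3, Has2, Dsel and B3galt6 rest on 10 to 19 reads in all.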
